A study of Rattus norvegicus with 10 samples.

Results

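Microglia are the resident immune cells of the brain, and 35 genes of the series that mark them or act in them were compared over its 5 groups. The genes were chosen by name, as the rows of the count table whose gene symbol was on a list of 35, and each had 1 row among the 32545 genes of the table. They were split by role into 8 homeostatic genes, 11 complement and phagocytic genes, 3 transcription factors, 4 genes of the Toll‐like receptor family and its partners, and 9 genes of leukocyte signalling and the cytoskeleton. RNA came from the CA1 region, microdissected from hippocampal slices of adult male Wistar rats of 5 to 7 weeks. Each group had 2 libraries. The groups were SKF, slices treated with a dopamine D1/D5 receptor agonist, SKF+Aβ, the same with Aβ(1‐42) oligomers at 200 nM, SKF+Aβ+CSP, with the glucose‐derived carbon nanosphere CSP added as vehicle, SKF+Aβ+CSP‐TTK21, with TTK21, which activates the histone acetyltransferases CBP and p300, loaded on that particle, and CSP‐TTK21 alone, without SKF and without Aβ. Both particles were given at 0.36 μg/ml. All slices had 30 min of basal stimulation and were collected 1 h after treatment, and each repeat pooled 2 slices from 2 biological samples. The untreated group is not analysed here, so SKF is the reference for Aβ, and CSP‐TTK21 alone differs from SKF in more than 1 agent.

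Microglia survey the tissue with fine processes and depend on the colony‐stimulating factor receptor Csf1r, on fractalkine signals through Cx3cr1 and on purines sensed by P2ry12. They make the C1q chains that start the classical complement cascade, and they take up tagged synapses and debris through complement and Trem2 receptors. Their identity is set by transcription factors such as Spi1 (PU.1), Irf8 and Runx1. Microglia that turn reactive commonly lower homeostatic genes and raise phagocytic ones, which is why both groups of genes are described apart. In tissue RNA, fewer microglia and less RNA of a gene per cell cannot be told apart.

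Total counts were between 6753742 and 8473407 per library, so that 3 counts correspond to 0.354 to 0.444 CPM, the count of a gene relative to the total of its library. Values are normalized CPM, with totals adjusted by edgeR's TMM factors, and are given in the order replicate 1 and replicate 2. Of the 35 genes, 33 passed edgeR's filter on low counts and were tested among 15032 genes in 1 quasi‐likelihood fit over all 10 libraries. The other 2, Tlr4 and Ly86, had 1 to 7 and 1 to 9 counts per library. A gene was called at a Benjamini‐Hochberg adjusted p under 0.05. With 2 libraries against 2 an exact permutation test of a single gene cannot give a two‐sided p below 0.333, so each test below borrows its estimate of spread from other genes and from all groups. Nothing says that same‐numbered libraries of different groups share animals, and the p‐values measure the spread between these libraries. The chi‐square per degree of freedom between the libraries of a group was 4.73 to 12.1, where counting noise alone would give about 1.

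None of the 33 tested genes was called by edgeR in any of 8 comparisons between groups or in the test over the 5 groups. The smallest adjusted p of any of them was 0.0617, for C1qa between SKF+Aβ and SKF. In the test over the 5 groups, 3 of the 33 had an unadjusted p under 0.05, C1qa, Tmem119 and C1qc, with adjusted p of 0.249, 0.309 and 0.324 by edgeR. That count was 1 without SKF+Aβ+CSP replicate 2, 2 without CSP‐TTK21 alone replicate 2 and 4 to 10 without 1 of the other libraries, with 10 without SKF replicate 1. Of all 15032 genes, 14.3% had an unadjusted p under 0.05 in that test and 0.00665% were called.

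**Figure D1:**
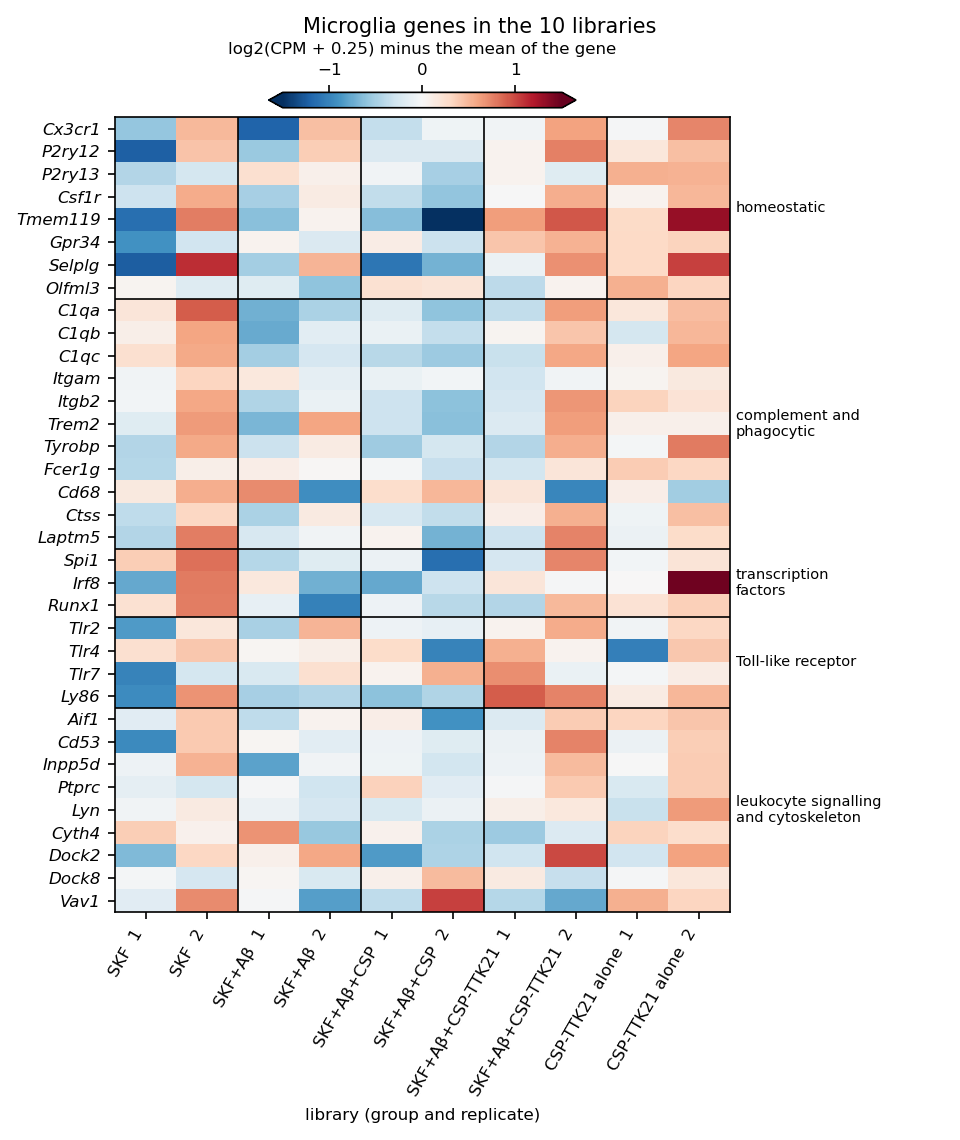
The heat map shows log2(CPM + 0.25) minus the mean of the gene over the 10 libraries (colour scale from -1.5 to 1.5) for the 35 microglia genes (rows, by role) in each library (columns, by group). The columns of replicate 2 of SKF, CSP‐TTK21 alone and SKF+Aβ+CSP‐TTK21 are mostly red, and those of SKF replicate 1 and of both SKF+Aβ+CSP libraries are mostly blue.

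The C1q chains had their highest group means in SKF and lower values in both Aβ groups without TTK21. C1q is the recognition molecule of the classical complement pathway, built from the products of C1qa, C1qb and C1qc, and microglia are its main source in the brain. C1qa (ENSRNOG00000012807) stood at 23.6 and 39.2 normalized CPM for SKF, at 12.5 and 14.9 for SKF+Aβ, at 18.2 and 13.6 for SKF+Aβ+CSP, at 16.1 and 32.3 for SKF+Aβ+CSP‐TTK21 and at 23.3 and 28.7 for CSP‐TTK21 alone. Both SKF libraries lay above both libraries of SKF+Aβ and of SKF+Aβ+CSP, and the SKF+Aβ+CSP‐TTK21 libraries lay apart from each other, one among the low values and the other among the SKF values. C1qb (ENSRNOG00000012749) stood at 16.3 and 23.1 normalized CPM for SKF, at 8.92 and 13.7 for SKF+Aβ, at 14.3 and 11.8 for SKF+Aβ+CSP, at 15.7 and 20.4 for SKF+Aβ+CSP‐TTK21 and at 12.6 and 21.6 for CSP‐TTK21 alone. C1qc (ENSRNOG00000012804) stood at 9.24 and 11.7 normalized CPM for SKF, at 5.43 and 6.54 for SKF+Aβ, at 5.78 and 5.26 for SKF+Aβ+CSP, at 6.13 and 11.8 for SKF+Aβ+CSP‐TTK21 and at 8.28 and 11.9 for CSP‐TTK21 alone. As with C1qa, neither chain overlapped between SKF and SKF+Aβ or between SKF and SKF+Aβ+CSP. The share of all genes without overlap was not counted, so separations of libraries here and below describe the values only. A complete separation of 2 against 2 libraries has a two‐sided p of 0.333 by the exact permutation test. For C1qa the group means were 31.4 ± 11 in SKF and 13.7 ± 1.65 normalized CPM in SKF+Aβ (SD, n = 2), with log2 fold change -1.20, standard error 0.31, unadjusted p = 0.00199 and adjusted p = 0.0617 by edgeR. The difference between SKF+Aβ and SKF was -0.80 with standard error 0.29 and adjusted p = 0.127 for C1qb and -0.81 with standard error 0.32 and adjusted p = 0.159 for C1qc on the log2 scale in the same edgeR test. Without SKF replicate 2 the log2 fold change of C1qa was -0.78, and without SKF replicate 1 it was -1.53.

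In C1qa the adjusted p stood on either side of the threshold with the choice of test. It was 0.00879 by DESeq2 and 0.0828 by edgeR with only the 4 libraries compared, and over all alternatives without a left‐out library it was between 4.99e-06 (edgeR with no filter on low counts) and that value. In SKF+Aβ+CSP‐TTK21, C1qa was higher than in SKF+Aβ (log2 fold change 0.81, standard error 0.32, unadjusted p = 0.0228 and adjusted p = 0.746 by edgeR), and C1qb had log2 fold change 0.67, standard error 0.29, unadjusted p = 0.0374 and adjusted p = 0.746 by edgeR. Neither passed the threshold. The 16.1 normalized CPM of C1qa in SKF+Aβ+CSP‐TTK21 replicate 1 were between the 2 libraries of SKF+Aβ+CSP, and without replicate 2 of SKF+Aβ+CSP‐TTK21 the log2 fold change of C1qa against SKF+Aβ was 0.22.

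The sequences before the starts of C1qa, C1qb and Ctss are printed because C1qa and C1qb are C1q chains, with which the results open, because Ctss had the highest count of its group, and because PU.1, the product of the member Spi1, binds purine‐rich elements with the core GAGGAA in myeloid promoters. RefSeq promoters (build GRCr8) matched 24 of the 35 genes. Each line gives the 250 bases before the start, 5′ to 3′ on the strand of the gene, with every GAGGAA on either strand in capitals (TTCCTC where it is on the other strand). They are from chr5:154419934-154420183, minus strand, chr5:154407828-154408077, minus strand, and chr2:185775146-185775395, plus strand. The sources name different builds for the counts, so these positions hold for the RefSeq build only.
C1qa: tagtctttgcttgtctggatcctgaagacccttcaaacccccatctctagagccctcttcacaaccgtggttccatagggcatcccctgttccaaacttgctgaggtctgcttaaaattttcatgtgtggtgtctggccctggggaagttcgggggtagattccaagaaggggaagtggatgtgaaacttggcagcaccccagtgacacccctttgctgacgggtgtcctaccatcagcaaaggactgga
C1qb: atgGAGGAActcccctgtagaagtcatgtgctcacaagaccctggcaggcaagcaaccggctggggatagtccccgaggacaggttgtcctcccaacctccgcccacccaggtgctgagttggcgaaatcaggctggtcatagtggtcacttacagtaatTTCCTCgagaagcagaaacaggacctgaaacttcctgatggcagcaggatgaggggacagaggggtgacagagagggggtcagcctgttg
Ctss: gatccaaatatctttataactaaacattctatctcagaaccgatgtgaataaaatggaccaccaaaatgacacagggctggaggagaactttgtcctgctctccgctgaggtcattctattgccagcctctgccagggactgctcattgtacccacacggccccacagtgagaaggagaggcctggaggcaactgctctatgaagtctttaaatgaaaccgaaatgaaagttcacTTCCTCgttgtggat
The core GAGGAA was present on either strand in 15 of the 24 matched promoters (62.5%) and in 23.3% of 33469 RefSeq promoters of the same length. C1qb had 2 such matches, Ctss had 1, which begins 15 bases before the start, and C1qa had 0. The composite of PU.1 and IRF factors, written GGAANNGAAA and overlapping the core in GGAA, was found on either strand in 1 of the 24 (Cd68) and in 2.48% of all promoters. These matches describe letters and not binding. Aif1, C1qc, Fcer1g, Itgb2, Ly86, Lyn, P2ry12, Selplg, Spi1, Tmem119 and Tyrobp had no matched promoter.

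**Figure D2:**
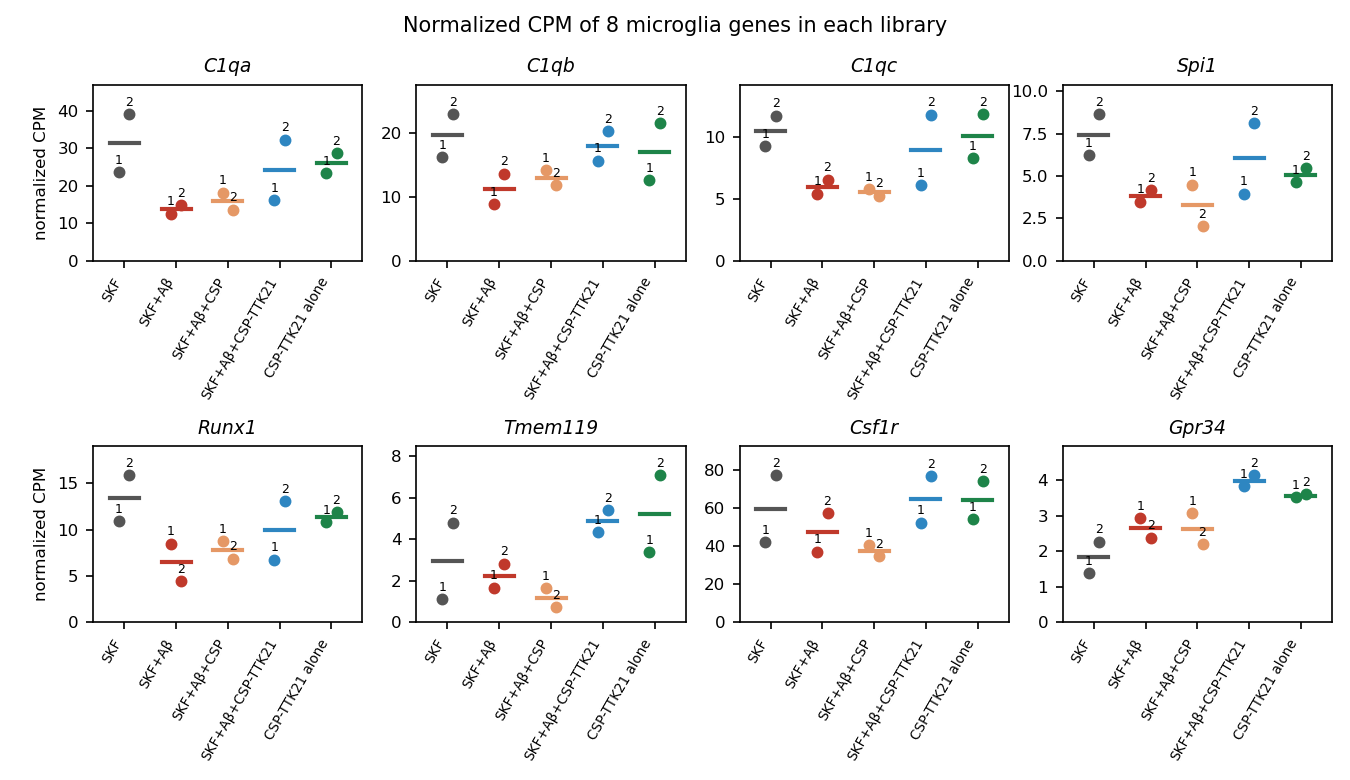
Each panel plots the normalized CPM (linear axis from 0) of 1 gene in every library of the 5 groups, with points numbered by replicate and a line at the mean of the 2 libraries. In C1qa, C1qb, C1qc, Spi1 and Runx1 both SKF points lie above both points of SKF+Aβ, and in Tmem119 both points of SKF+Aβ+CSP‐TTK21 lie above both points of SKF+Aβ+CSP.

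Both chains of complement receptor CR3 were measured. Itgb2, the beta chain shared by the leukocyte integrins, stood at 14.1 and 21.9 normalized CPM for SKF, at 10.6 and 13.5 for SKF+Aβ, at 11.7 and 9.36 for SKF+Aβ+CSP, at 12.1 and 23.1 for SKF+Aβ+CSP‐TTK21 and at 18.4 and 16.8 for CSP‐TTK21 alone. Both SKF libraries were above both of SKF+Aβ and of SKF+Aβ+CSP, as for the C1q chains. Itgam, the alpha chain (CD11b) that joins it in complement receptor CR3, stood at 25.7 and 33.3 normalized CPM for SKF, at 29.8 and 24.2 for SKF+Aβ, at 25 and 26 for SKF+Aβ+CSP, at 21.8 and 25.8 for SKF+Aβ+CSP‐TTK21 and at 27.4 and 29.6 for CSP‐TTK21 alone. Itgam was the steadiest of the 11 genes, with its highest library at 1.53 times its lowest.

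Trem2, the lipid‐sensing receptor of phagocytosis, stood at 2.07 and 3.86 normalized CPM for SKF, at 1.39 and 3.72 for SKF+Aβ, at 1.89 and 1.46 for SKF+Aβ+CSP, at 2.04 and 3.84 for SKF+Aβ+CSP‐TTK21 and at 2.53 and 2.53 for CSP‐TTK21 alone. Tyrobp, the adaptor (DAP12) through which Trem2 signals, stood at 1.52 and 3.33 normalized CPM for SKF, at 1.67 and 2.38 for SKF+Aβ, at 1.41 and 1.75 for SKF+Aβ+CSP, at 1.53 and 3.27 for SKF+Aβ+CSP‐TTK21 and at 2.11 and 3.87 for CSP‐TTK21 alone. Both had replicate 2 above replicate 1 in SKF, SKF+Aβ and SKF+Aβ+CSP‐TTK21, and neither separated SKF from SKF+Aβ. Fcer1g, the common gamma chain of Fc receptors, stood at 5.52 and 7.99 normalized CPM for SKF, at 8.08 and 7.59 for SKF+Aβ, at 7.31 and 5.85 for SKF+Aβ+CSP, at 6.13 and 8.54 for SKF+Aβ+CSP‐TTK21 and at 9.82 and 9.34 for CSP‐TTK21 alone, and its CSP‐TTK21 alone values were above those of every other library.

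Cathepsin S (Ctss), a lysosomal protease of antigen processing, stood at 65.4 and 106 normalized CPM for SKF, at 61.2 and 94 for SKF+Aβ, at 72.5 and 65.8 for SKF+Aβ+CSP, at 91.4 and 124 for SKF+Aβ+CSP‐TTK21 and at 81.7 and 117 for CSP‐TTK21 alone. Laptm5, a lysosomal membrane protein of haematopoietic cells, stood at 8.83 and 20.8 normalized CPM for SKF, at 10.2 and 11.6 for SKF+Aβ, at 12.5 and 7.31 for SKF+Aβ+CSP, at 9.7 and 20.4 for SKF+Aβ+CSP‐TTK21 and at 11.4 and 14.7 for CSP‐TTK21 alone. Both had their highest libraries in replicate 2 of SKF and of SKF+Aβ+CSP‐TTK21, and Ctss also in replicate 2 of CSP‐TTK21 alone. Cd68, a lysosomal glycoprotein of phagocytes, stood at 2.48 and 3.33 normalized CPM for SKF, at 3.76 and 1.04 for SKF+Aβ, at 2.71 and 3.22 for SKF+Aβ+CSP, at 2.55 and 0.996 for SKF+Aβ+CSP‐TTK21 and at 2.39 and 1.47 for CSP‐TTK21 alone. Its counts were only 7 to 27 per library, and in SKF+Aβ, CSP‐TTK21 alone and SKF+Aβ+CSP‐TTK21 it was lower in replicate 2, the reverse of the other lysosomal genes.

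Among the homeostatic genes, the group means of 7 of 8 were higher in SKF+Aβ+CSP‐TTK21 than in SKF+Aβ+CSP. Csf1r, the receptor on which survival of microglia depends, stood at 42.2 and 77.3 normalized CPM for SKF, at 37.2 and 57.4 for SKF+Aβ, at 40.7 and 34.8 for SKF+Aβ+CSP, at 52.3 and 77 for SKF+Aβ+CSP‐TTK21 and at 54.3 and 74.2 for CSP‐TTK21 alone. Both SKF+Aβ+CSP libraries were below all 4 libraries of CSP‐TTK21 alone and SKF+Aβ+CSP‐TTK21. Tmem119, a membrane protein specific to microglia in the brain, stood at 1.1 and 4.8 normalized CPM for SKF, at 1.67 and 2.83 for SKF+Aβ, at 1.65 and 0.731 for SKF+Aβ+CSP, at 4.34 and 5.41 for SKF+Aβ+CSP‐TTK21 and at 3.37 and 7.07 for CSP‐TTK21 alone. Tmem119 had 5 to 53 counts per library, and its highest library was 9.67 times its lowest, the widest range of the 8. Selplg (PSGL‐1), an adhesion ligand expressed by surveying microglia, stood at 1.24 and 7.33 normalized CPM for SKF, at 2.23 and 4.76 for SKF+Aβ, at 1.41 and 1.9 for SKF+Aβ+CSP, at 3.06 and 5.41 for SKF+Aβ+CSP‐TTK21 and at 4.07 and 6.94 for CSP‐TTK21 alone. In Selplg, the SKF libraries spanned the range of all 10, with the lowest value in replicate 1 and the highest in replicate 2.

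Receptors of microglia for purines and lysolipids differed by gene. P2ry12, the ADP receptor that directs process extension, stood at 2.62 and 8.79 normalized CPM for SKF, at 4.32 and 8.48 for SKF+Aβ, at 5.54 and 5.56 for SKF+Aβ+CSP, at 6.76 and 11.1 for SKF+Aβ+CSP‐TTK21 and at 7.3 and 8.94 for CSP‐TTK21 alone. Its SKF libraries were the lowest and the third highest of the 10, so no group stood apart from SKF. P2ry13, a related ADP receptor, stood at 1.38 and 1.6 normalized CPM for SKF, at 2.37 and 2.08 for SKF+Aβ, at 1.89 and 1.32 for SKF+Aβ+CSP, at 2.04 and 1.71 for SKF+Aβ+CSP‐TTK21 and at 2.95 and 2.93 for CSP‐TTK21 alone. Both CSP‐TTK21 alone values of P2ry13 were above those of all other libraries, on 9 to 22 counts per library. Gpr34, a lysophosphatidylserine receptor, stood at 1.38 and 2.27 normalized CPM for SKF, at 2.93 and 2.38 for SKF+Aβ, at 3.06 and 2.19 for SKF+Aβ+CSP, at 3.83 and 4.13 for SKF+Aβ+CSP‐TTK21 and at 3.51 and 3.6 for CSP‐TTK21 alone, and both SKF libraries were below both libraries of SKF+Aβ, CSP‐TTK21 alone and SKF+Aβ+CSP‐TTK21.

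Cx3cr1, the fractalkine receptor, stood at 2.48 and 5.46 normalized CPM for SKF, at 1.53 and 5.35 for SKF+Aβ, at 2.95 and 3.66 for SKF+Aβ+CSP, at 3.7 and 5.98 for SKF+Aβ+CSP‐TTK21 and at 3.79 and 6.54 for CSP‐TTK21 alone. Its values overlapped between SKF and each other group. Olfml3, a secreted olfactomedin protein enriched in microglia, stood at 5.24 and 4.4 normalized CPM for SKF, at 4.46 and 3.27 for SKF+Aβ, at 6.01 and 5.85 for SKF+Aβ+CSP, at 3.83 and 5.27 for SKF+Aβ+CSP‐TTK21 and at 7.44 and 6.4 for CSP‐TTK21 alone. Olfml3 ran against the other homeostatic genes, with higher values for SKF+Aβ+CSP than for SKF+Aβ or SKF+Aβ+CSP‐TTK21.

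Of the transcription factors, Spi1 (PU.1), the master regulator of myeloid cells, stood at 6.21 and 8.66 normalized CPM for SKF, at 3.48 and 4.16 for SKF+Aβ, at 4.48 and 2.05 for SKF+Aβ+CSP, at 3.96 and 8.11 for SKF+Aβ+CSP‐TTK21 and at 4.63 and 5.47 for CSP‐TTK21 alone. Runx1, a regulator of haematopoietic and microglial development, stood at 10.9 and 15.9 normalized CPM for SKF, at 8.5 and 4.46 for SKF+Aβ, at 8.72 and 6.87 for SKF+Aβ+CSP, at 6.76 and 13.1 for SKF+Aβ+CSP‐TTK21 and at 10.8 and 11.9 for CSP‐TTK21 alone. In both, the SKF libraries were above both libraries of SKF+Aβ and SKF+Aβ+CSP. In both, 1 library of SKF+Aβ+CSP‐TTK21 was within the SKF values and 1 below them. In Spi1 the SKF libraries were also above both libraries of CSP‐TTK21 alone, a group without Aβ. Irf8, a partner of PU.1, ranged from 11 in SKF replicate 1 to 52.7 in CSP‐TTK21 alone replicate 2, with SKF replicate 2 next at 32.9.

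Tlr7, an endosomal receptor of single‐stranded RNA, stood at 3.31 and 5.73 normalized CPM for SKF, at 5.85 and 8.18 for SKF+Aβ, at 7.19 and 10.1 for SKF+Aβ+CSP, at 11.4 and 6.4 for SKF+Aβ+CSP‐TTK21 and at 6.74 and 7.47 for CSP‐TTK21 alone, and both SKF values were below both values of every other group. Tlr2, the receptor of bacterial lipopeptides that also binds aggregated proteins, ranged from 15.9 in SKF replicate 1 to 42.3 in SKF+Aβ+CSP‐TTK21 replicate 2, with overlapping groups. Tlr4 had 0.140 to 0.893 normalized CPM and Ly86, a partner of the Toll‐like protein CD180, 0.138 to 1.15, which is too low to tell groups apart at this depth.

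The 9 signalling and cytoskeleton genes ranged over their libraries by 1.64‐fold to 4.16‐fold, and none had an unadjusted p under 0.05 over the 5 groups. Inpp5d (SHIP1), the phosphatase that restrains Trem2 and Fc receptor signals, was 15.3 ± 4.51 normalized CPM in SKF and 9.79 ± 3.61 in SKF+Aβ (SD, n = 2). Aif1 (IBA1), the usual histological marker of microglia, averaged 9.32 ± 2.65 for SKF, 7.59 ± 1.67 for SKF+Aβ, 6.73 ± 3.32 for SKF+Aβ+CSP, 9.19 ± 2.71 for SKF+Aβ+CSP‐TTK21 and 11 ± 0.474 for CSP‐TTK21 alone (SD, n = 2). The SKF+Aβ+CSP libraries, at 9.08 and 4.39, overlapped those of SKF, SKF+Aβ and SKF+Aβ+CSP‐TTK21 and lay below both libraries of CSP‐TTK21 alone, at 10.7 and 11.3. The test over the 5 groups gave an adjusted p of 0.636 by edgeR. Cd53, a tetraspanin of leukocytes, was between 2.21 and 7.69 normalized CPM, with the lowest value in SKF replicate 1. Ptprc (CD45), the tyrosine phosphatase of leukocytes, Lyn, a Src‐family kinase, and Dock8, an activator of Cdc42, ranged by 1.64‐fold, 1.98‐fold and 1.79‐fold.

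Aβ was compared with SKF alone to ask what the oligomers did to these genes. Of the 33 tested, 23 had a lower mean and 10 a higher mean in SKF+Aβ, with a median log2 fold change of -0.26 against -0.0013 over all genes tested. In the complement and phagocytic group 10 of 11 had a log2 fold change below 0 (median -0.27), and in the homeostatic group 5 of 8 (median -0.26). The 3 transcription factors all had a value below 0 (median -0.96). DESeq2 called 1 member, C1qa, and 822 of all genes. With no filter on low counts, edgeR called 3 members and 1311 of 25251 genes. In the edgeR fit with the filter no member was called, while 2.08% of all genes were (312 genes). That count fell to 1 without SKF+Aβ replicate 1 and 13 without replicate 2, to 11 without SKF replicate 1 and 174 without replicate 2, to 26 without either SKF+Aβ+CSP library and to 181 without CSP‐TTK21 alone replicate 1. At an unadjusted p under 0.05, 6 members were lower and 0 higher, against 10.9% and 12% of all genes. The members were chosen with earlier results of these data known, so these shares are description only. The 6 were C1qa, C1qb, C1qc, Runx1 (log2 fold change -1.04 with standard error 0.35 and adjusted p = 0.11 by edgeR), Spi1 (-0.96 with standard error 0.41 and adjusted p = 0.186) and Inpp5d (-0.65 with standard error 0.30 and adjusted p = 0.214). These counts rest on 1 library: without SKF replicate 2 only 5 of 11 complement and phagocytic genes were below 0 (median 0.076), and the median of the homeostatic genes was 0.81, whereas without SKF replicate 1 the medians were -0.73 and -0.59. Without SKF replicate 2, 1 member was lower and 4 were higher at an unadjusted p under 0.05, and without SKF replicate 1 the counts were 11 and 0. All 8 oligodendrocyte markers were also below 0 in this comparison (median -0.51), and 6 of 8 astrocyte markers (median -0.053), and their part in the result was not tested.

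**Figure D3:**
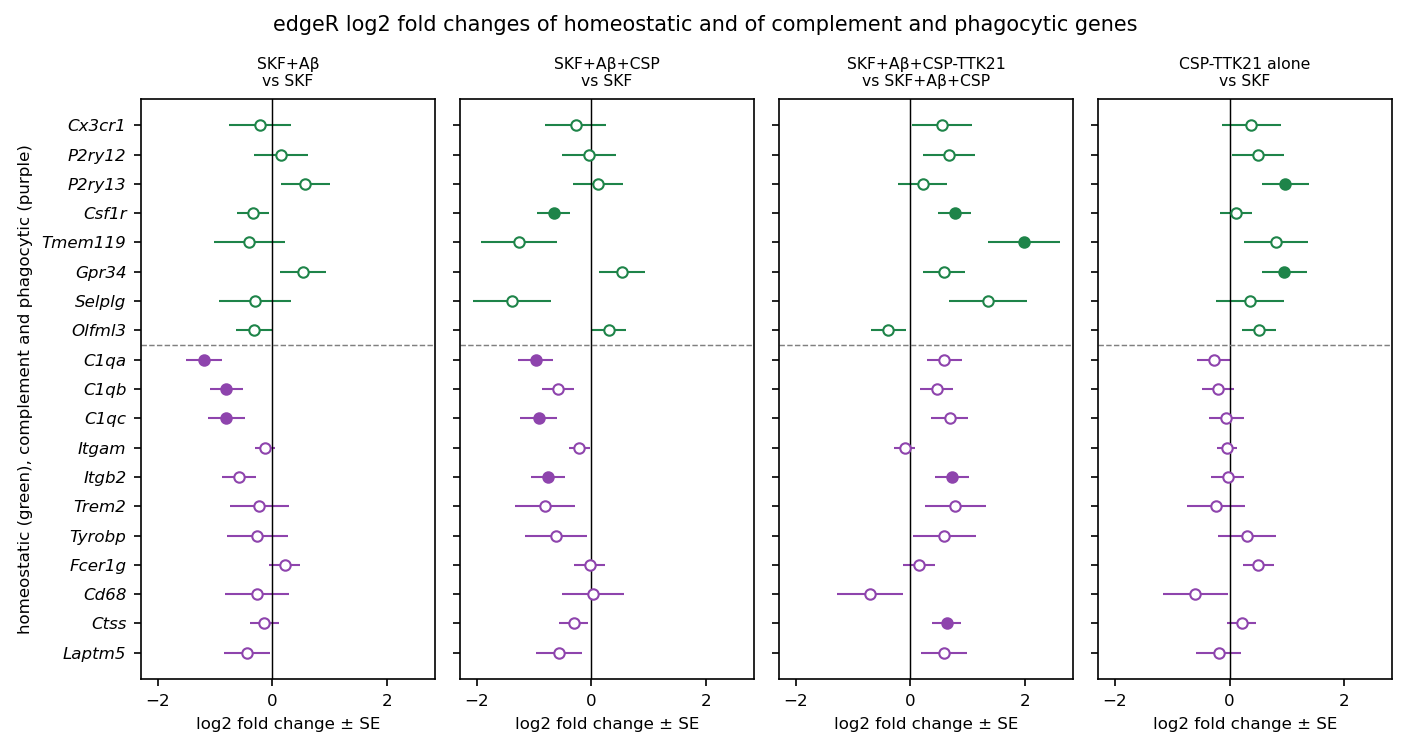
Points show edgeR log2 fold changes with standard errors (horizontal axis, log2 scale) of the 8 homeostatic genes (green) and the 11 complement and phagocytic genes (purple) in 4 comparisons of 2 against 2 libraries, filled where the unadjusted p is under 0.05. In SKF+Aβ against SKF the filled points are the C1q chains, all left of 0. In SKF+Aβ+CSP‐TTK21 against SKF+Aβ+CSP, Tmem119 at 1.98 is the point farthest right of the 4 panels.

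The vehicle was tested on top of Aβ. Between SKF+Aβ+CSP and SKF+Aβ, 22 of 33 had a log2 fold change below 0 (median -0.12, all genes -0.0071), 0 had an unadjusted p under 0.05 and 0 were called. Of all genes 0.552% were lower and 1.63% higher at an unadjusted p under 0.05, and 0% were called by edgeR (1 gene by DESeq2 and 0 by limma). With 1 library left out 0 to 2 members had an unadjusted p under 0.05. The smallest p‐values belonged to Olfml3 (log2 fold change 0.61 with standard error 0.31 and adjusted p = 1 by edgeR), Dock2, an activator of Rac in leukocytes (log2 fold change -1.13 with standard error 0.60), Vav1, a guanine nucleotide exchange factor of leukocyte signalling (0.88 with standard error 0.53), Dock8 (0.39 with standard error 0.24) and Selplg (-1.07 with standard error 0.70). Vav1 stood at 2.12 in SKF+Aβ+CSP replicate 1 and at 6 in replicate 2, and its log2 fold change changed sign to -0.014 without replicate 2. All 8 oligodendrocyte and all 6 endothelial markers were above 0 in this comparison (medians 0.39 and 0.37) and all 8 astrocyte markers below 0 (median -0.085), and their part in the result was not tested. The median of the homeostatic genes was -0.26, but -0.60 without SKF+Aβ replicate 1 and -0.054 without SKF+Aβ replicate 2.

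With the vehicle and Aβ together set against SKF, 24 of 33 were below 0 (median -0.41, all genes 0.0022). The complement and phagocytic genes had 10 of 11 below 0 (median -0.59) and the homeostatic genes 5 of 8 (median -0.16). None was called by edgeR, as against 0.02% of all genes, whereas DESeq2 called 1 member and 452 of all genes and edgeR with no filter on low counts 7 members and 754 of all genes. At an unadjusted p under 0.05, 6 members were lower (background 9.03%) and 1 higher (background 10.3%). The lower ones were C1qa (log2 fold change -0.98 with standard error 0.31 and adjusted p = 0.126 by edgeR), C1qc (-0.92 with standard error 0.32 and adjusted p = 0.159), Spi1 (-1.16 with standard error 0.41 and adjusted p = 0.162), Itgb2 (-0.77 with standard error 0.30 and adjusted p = 0.187), Csf1r and Runx1, and the higher one was Tlr7 (0.92 with standard error 0.35 and adjusted p = 0.185). This comparison and the one of SKF+Aβ share the SKF libraries, and without SKF replicate 2 the complement and phagocytic median was -0.0086, the homeostatic median 0.31 and no member was lower at an unadjusted p under 0.05. The 7 members at that limit became 13 without SKF replicate 1 and 0 without SKF+Aβ+CSP replicate 2. Endothelial markers were above 0 in 6 of 6 (median 0.29) and astrocyte markers below 0 in 7 of 8 (median -0.20), and their part in the result was not tested.

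The TTK21 cargo was assessed in SKF+Aβ+CSP‐TTK21 against SKF+Aβ+CSP, where both groups had SKF, Aβ and the nanosphere. Here 27 of 33 were above 0, with a median log2 fold change of 0.53 against 0.0085 over all genes. The homeostatic genes had 7 of 8 above 0 (median 0.63), the complement and phagocytic genes 9 of 11 (median 0.59). Of all genes 0% were called by edgeR and likewise none of the members. Of all genes 22 were called by DESeq2, 0 by limma and 50 by edgeR with only the 4 libraries compared, without a member in any of these. With no filter on low counts, edgeR called 3 members and 307 of 25251 genes. At an unadjusted p under 0.05 there were 4 higher members and 0 lower, against 3.17% and 5.61% of all genes. Tmem119 was 4.87 ± 0.756 normalized CPM with the cargo and 1.19 ± 0.65 without it (SD, n = 2), with log2 fold change 1.98, standard error 0.63, unadjusted p = 0.00757 and adjusted p = 0.523 by edgeR. The others were Csf1r (log2 fold change 0.77 with standard error 0.28 and adjusted p = 0.556 by edgeR), Ctss (0.64 with standard error 0.25 and adjusted p = 0.556) and Itgb2 (0.73 with standard error 0.30 and adjusted p = 0.556), and Dock2 came next (log2 fold change 1.26 with standard error 0.59). Without SKF+Aβ+CSP‐TTK21 replicate 2 the median of the complement and phagocytic genes was 0.0070, with 6 of 11 above 0, and that of the homeostatic genes was 0.40, with 7 of 8. The number of higher members at an unadjusted p under 0.05 went from 0 (without SKF+Aβ+CSP replicate 2) to 10 (without SKF+Aβ+CSP‐TTK21 replicate 1). In the same comparison all 8 astrocyte markers were above 0 (median 0.42) and all 6 endothelial markers below 0 (median -1.01). Of the border macrophage markers, Stab1 had log2 fold change -1.70 with standard error 0.42 and adjusted p = 0.51 by edgeR and Lyve1 log2 fold change 1.23 with standard error 0.47 and adjusted p = 0.556 by edgeR. The part of these markers in the result was not tested.

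Against SKF+Aβ, the group with neither particle, 27 of 33 members were above 0 in SKF+Aβ+CSP‐TTK21 (median 0.35, all genes 0.011). C1qa and C1qb were the 2 with an unadjusted p under 0.05, both higher, where the background was 2.52% higher and 4.06% lower, and 0% of all genes were called by edgeR (0 also by DESeq2 and by limma). The count of 2 was 0 without SKF+Aβ+CSP‐TTK21 replicate 2 and 10 without its replicate 1, 1 without SKF+Aβ replicate 1 and 8 without its replicate 2, and 5 without either SKF library. The next were Inpp5d (log2 fold change 0.62 with standard error 0.30 and adjusted p = 0.746 by edgeR), Tmem119 (1.11 with standard error 0.59 and adjusted p = 0.754) and Ctss (0.47 with standard error 0.25 and adjusted p = 0.755). Without SKF+Aβ+CSP‐TTK21 replicate 2, 19 of 33 were above 0 and the median was 0.044. The 8 oligodendrocyte markers and the 8 astrocyte markers were all above 0 here (medians 0.56 and 0.31) and the 6 endothelial markers all below 0 (median -0.52), and their part in the result was not tested.

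Set against SKF, SKF+Aβ+CSP‐TTK21 had 16 members above 0 and 17 below (median -0.026, all genes -0.011). Homeostatic genes were above 0 in 6 of 8 and complement and phagocytic genes in 3 of 11. Gpr34 (log2 fold change 1.11 with standard error 0.39 and adjusted p = 0.156 by edgeR) and Tlr7 (0.97 with standard error 0.35 and adjusted p = 0.169) were the 2 with an unadjusted p under 0.05, both higher, against a background of 10.8% higher and 8.78% lower, while 0.00665% of all genes were called by edgeR. DESeq2 called 355 of all genes and no member. The count of 2 went from 1 without SKF+Aβ+CSP‐TTK21 replicate 1 to 8 without SKF replicate 2, where 335 of all genes were called. The next smallest p‐values were those of Vav1 (log2 fold change -1.004 with standard error 0.54), Tlr2 (0.58 with standard error 0.33) and Itgam (-0.31 with standard error 0.18). The homeostatic median of 0.30 was 0.0018 without SKF replicate 1 and 1.24 without SKF replicate 2.

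In CSP‐TTK21 alone against SKF, all 8 homeostatic genes had a log2 fold change above 0 (median 0.51), while 8 of 11 complement and phagocytic genes were below 0 (median -0.056). Over the 33 the median was 0.22, against 0.0023 for all genes. At an unadjusted p under 0.05, Gpr34 (log2 fold change 0.95 with standard error 0.39 and adjusted p = 0.633 by edgeR) and P2ry13 (0.97 with standard error 0.41 and adjusted p = 0.633) were higher and 0 were lower. The background was 4.16% higher and 3.63% lower, and 0% of all genes were called (3 genes by DESeq2 and 1 by limma). The count of 2 was 0 without SKF replicate 1 or CSP‐TTK21 alone replicate 2 and 10 without SKF replicate 2. Fcer1g (log2 fold change 0.50 with standard error 0.27), Tlr7 (0.65 with standard error 0.36) and Olfml3 (0.52 with standard error 0.30) followed. Of the tested border macrophage markers, Lyve1 had log2 fold change 1.58 (standard error 0.48), Mrc1 0.94 (0.42), Cd4 0.43 (0.37) and Stab1 -0.71 (0.39). None of these markers was called, and their part in the result was not tested. Without SKF replicate 1 the homeostatic genes were split 4 and 4 around 0 (median 0.017), and without SKF replicate 2 the median was 1.22. The complement and phagocytic genes turned direction: 10 of 11 were below 0 without SKF replicate 1 (median -0.32) and 10 of 11 above 0 without SKF replicate 2 (median 0.29).

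For SKF+Aβ+CSP‐TTK21 against CSP‐TTK21 alone, groups that share the TTK21 particle and differ in SKF and Aβ, 14 members were above 0 and 19 below (median -0.10, all genes 0.0049). No member had an unadjusted p under 0.05, where the background was 2.06% higher and 2.12% lower and 0% of all genes were called by edgeR (0 also by DESeq2 and by limma). With 1 library left out 0 to 2 members passed the unadjusted limit. Vav1 (log2 fold change -1.10 with standard error 0.53 and adjusted p = 0.963 by edgeR), Olfml3 (log2 fold change -0.61 with standard error 0.30), Irf8 (-0.83 with standard error 0.47), Cyth4, an activator of Arf GTPases (-0.70 with standard error 0.40), and P2ry13 (-0.64 with standard error 0.40) had the smallest p‐values. The value of Irf8 came from CSP‐TTK21 alone replicate 2, without which it was 0.083. The homeostatic median of -0.11 was 0.22 without that library.

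Homeostatic and complement genes were also set against each other within each library, a description chosen after their values were seen. Summed over the 8 homeostatic genes, the level was 57.7 and 112 for SKF, 56.7 and 86.6 for SKF+Aβ, 63.2 and 56 for SKF+Aβ+CSP, 79.9 and 116 for SKF+Aβ+CSP‐TTK21 and 86.7 and 117 for CSP‐TTK21 alone normalized CPM. Over the 11 complement and phagocytic genes it was 175 and 274 for SKF, 154 and 193 for SKF+Aβ, 173 and 152 for SKF+Aβ+CSP, 185 and 274 for SKF+Aβ+CSP‐TTK21 and 199.9 and 257 for CSP‐TTK21 alone normalized CPM. Both sums were higher in replicate 2 in SKF, SKF+Aβ, CSP‐TTK21 alone and SKF+Aβ+CSP‐TTK21, and lower in replicate 2 in SKF+Aβ+CSP. The mean log2 level of the complement and phagocytic genes relative to each gene's mean, minus that of the homeostatic genes, was 0.60 and 0.21 for SKF, 0.12 and -0.21 for SKF+Aβ, 0.12 and 0.11 for SKF+Aβ+CSP, -0.27 and -0.13 for SKF+Aβ+CSP‐TTK21 and -0.20 and -0.35 for CSP‐TTK21 alone. Both SKF libraries thus had the highest differences, both libraries of CSP‐TTK21 alone and SKF+Aβ+CSP‐TTK21 had negative ones, and SKF+Aβ had 1 of each sign.

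**Figure D4:**
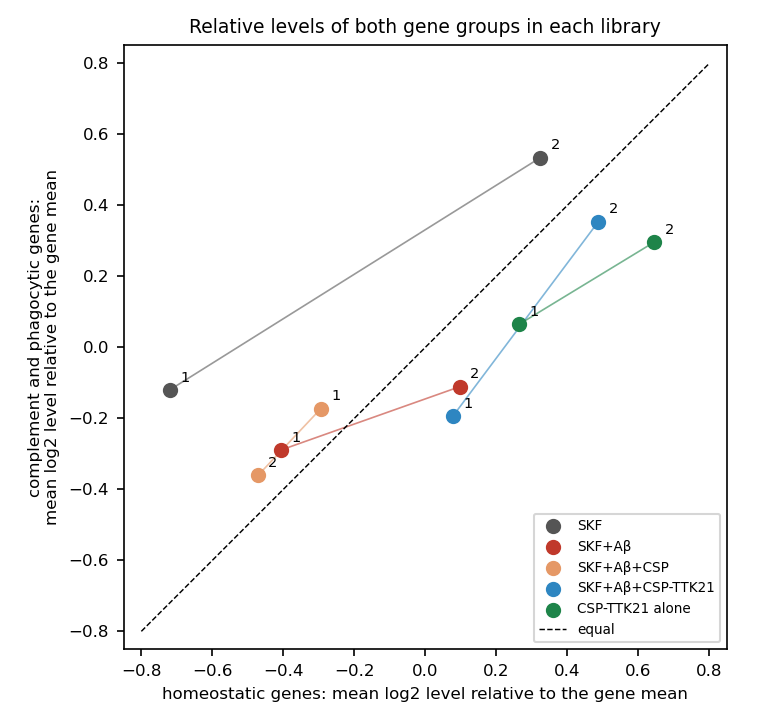
Each point is 1 library, placed by the mean log2 level, relative to the mean of each gene over the 10 libraries, of the 8 homeostatic genes (horizontal axis) and of the 11 complement and phagocytic genes (vertical axis), with lines joining the 2 libraries of a group and a dashed line where both are equal. The SKF points are farthest above the dashed line, at differences of 0.60 and 0.21, and the points of CSP‐TTK21 alone and SKF+Aβ+CSP‐TTK21 are below it.

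The 2 libraries of a group differed in the same direction for most of these genes. Replicate 2 was higher than replicate 1 in 29 of 33 members for SKF (median log2 difference 0.63), 19 for SKF+Aβ, 12 for SKF+Aβ+CSP, 27 for SKF+Aβ+CSP‐TTK21 (median 0.50) and 26 for CSP‐TTK21 alone, against 49.3% to 51.8% of all genes. The 8 astrocyte markers moved with them, with replicate 2 higher in 8 of 8 in SKF and in 8 of 8 in CSP‐TTK21 alone, and their sum ranged from 4123 to 5552 normalized CPM in SKF and from 3987 to 4418 in SKF+Aβ and SKF+Aβ+CSP. The oligodendrocyte markers summed to 16650 and 24618 in SKF, 16071 and 11285 in SKF+Aβ and 25859 and 15243 in SKF+Aβ+CSP‐TTK21. The endothelial markers ran the other way in SKF (203 and 104) and were lowest in SKF+Aβ+CSP‐TTK21 (89.5 and 85.7), with Cldn5 at 0 in every library. Acute inflammatory genes also ran the other way, with replicate 2 higher in 1 of 12 in SKF and in 0 of 12 in CSP‐TTK21 alone. The part of these lists in the differences of the microglia genes was not tested.

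Most markers of blood leukocytes were at or near the limit of detection, and those of border macrophages were low but in part measured. Of 8 monocyte and neutrophil markers, 7 had fewer than 10 counts in every library and Ccr2 had 0, and the sum of the list was 1.66 to 3.34 normalized CPM. T and B cell markers summed to 0.292 to 4.74, where Cd2 had 0 and Cd3e, named after its values were seen, reached 29 counts in SKF+Aβ replicate 1. Border macrophage markers summed to 11.5 to 21.9 over all libraries, where 4 of the 8 passed the filter on low counts and 3 stayed under 10 counts in every library. Stab1, a scavenger receptor of macrophages and sinusoidal endothelium, was 6.62 and 3.73 in SKF and 2.37 and 1.34 in SKF+Aβ, and Lyve1 ran the other way, with 1.79 and 1.47 in SKF and 3.20 and 4.16 in SKF+Aβ. The part of these cells in the results was not tested. The microglial markers themselves were present in every library, with at least 5 counts for each of Cx3cr1, P2ry12, P2ry13, Csf1r, Tmem119, Aif1, C1qa, C1qb, C1qc, Itgam and Trem2. Red cell genes summed to 123 to 159, neuron markers to 6365 to 7664 and CA3 and dentate markers to 369 to 466. Of the CA1 markers, Wfs1 was at 97.9 to 371 and Mpped1 at 147 to 215 normalized CPM over the libraries, and Fibcd1 had 0 counts. Of the genes of these lists that were tested, 0 were called by edgeR, and none of the T and B cell markers and 1 of the monocyte and neutrophil markers could be tested.

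A list of ligands and cofactors of microglial signalling, whose receptors are not all among the 35 genes, included 2 called genes, and both were lower in SKF+Aβ than in SKF. Tgfb1, the cytokine that maintains the homeostatic state of microglia, stood at 21.8 and 26.9 normalized CPM for SKF, at 9.61 and 11.2 for SKF+Aβ, at 16.9 and 11.6 for SKF+Aβ+CSP, at 16 and 23.8 for SKF+Aβ+CSP‐TTK21 and at 18.9 and 20.01 for CSP‐TTK21 alone, and fell in SKF+Aβ (log2 fold change -1.23 with standard error 0.24 and adjusted p = 0.0359 by edgeR). Apoe, a ligand of Trem2 made by astrocytes and reactive microglia, was 2317 ± 356 in SKF and 1242 ± 181 in SKF+Aβ (SD, n = 2), with a log2 change of -0.90 with standard error 0.20 and adjusted p = 0.0431 by edgeR. Cd47, the signal that restrains phagocytosis, was at 78.5 and 78.3 for SKF and at 107 and 111 for SKF+Aβ and was not called (log2 fold change 0.48 with standard error 0.15 and adjusted p = 0.0925 by edgeR). The log2 fold changes of Tgfb1 and Apoe were -1.07 and -0.73 without SKF replicate 2. Both calls held in 7 of 8 other settings (not with only the 4 libraries compared) and were lost when either library of SKF, SKF+Aβ or SKF+Aβ+CSP was left out, with adjusted p up to 0.153 and 0.185 by edgeR. Of the 11 genes of that list 3 were lower and 1 higher at an unadjusted p under 0.05 in SKF+Aβ, where the background was 10.9% lower, 12% higher and 2.08% called.

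Of genes of the disease‐associated microglial state, 11 of 14 tested were below 0 in SKF+Aβ against SKF (median -0.30), and Apoe was the one called. Axl, a receptor of apoptotic cells, was at 56.8 and 58.5 normalized CPM for SKF and at 36.4 and 39.6 for SKF+Aβ, and did not pass the threshold (log2 fold change -0.60 with standard error 0.17 and adjusted p = 0.0717 by edgeR). Spp1 (osteopontin) was above 10 only in replicate 2 of SKF+Aβ, SKF+Aβ+CSP and SKF+Aβ+CSP‐TTK21. Of 12 acute inflammatory genes tested, 1 was called, Socs3, which fell in SKF+Aβ (log2 fold change -0.86 with standard error 0.20 and adjusted p = 0.0454 by edgeR), a call lost in the same settings, with adjusted p up to 0.196 by edgeR. All 12 were above 0 in SKF+Aβ+CSP against SKF+Aβ (median 0.58) and below 0 in SKF+Aβ+CSP‐TTK21 against SKF+Aβ+CSP (median -0.47), 2 comparisons that share the SKF+Aβ+CSP libraries, and 0 were called in either. Of 40 further microglia genes, 35 were tested and 0 called in any comparison. Their median log2 fold change was -0.091 in SKF+Aβ against SKF and 0.073 in SKF+Aβ+CSP‐TTK21 against SKF+Aβ+CSP, both nearer 0 than the medians of the 33 members, and Fgr, Ikzf1 and Cd14 had their smallest p over the 5 groups (adjusted p = 0.284, 0.332 and 0.387 by edgeR).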

How the data were processed

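Strand‐specific, ribosomal RNA‐depleted libraries of CA1 tissue were sequenced in 10 samples of 5 groups, 2 each. The authors deposited a table of read counts per gene, used here as deposited. The study's methods describe trimming, removal of PCR duplicates, which can lower the counts of abundant genes, alignment with TopHat2 and transcript quantification with Cufflinks. The submitters' notes name HISAT2, STAR, Salmon and RSEM and the human build GRCh38, and the sources disagree on the build; which program made the deposited whole‐number counts, and its use of strand, are not given in the sources used here, so reads of overlapping or antisense genes cannot be told apart.

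Counts (6753742 to 8473407 per library) were analysed with edgeR 4.0.16 in R 4.3.3 (TMM factors, filterByExpr by group, quasi‐likelihood fit over all 10 libraries, Benjamini‐Hochberg over 15032 genes, called at adjusted p under 0.05). DESeq2 1.42.0, limma 3.58.1, other filters and factors, a replicate block, fewer libraries and each library left out were alternatives. Precision is that of 2 libraries a group, and the 3‐count floor covers counting error only. Fold changes shown in full belong to members past the threshold or, with fewer than 5, to the 5 of smallest p in a comparison. Homeostatic and complement genes are given per library, and up to 3 genes of smallest p over the 5 groups, plus markers at 0, were named of each further list. Members, lists and comparisons were chosen with earlier results of these data known. A result over the whole CA1 marker list is not reported here. Promoters were from RefSeq (GRCr8). Figures were drawn with matplotlib 3.10.9.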

Additional observations from a re-analysis of the deposited data

How the results depend on the processing

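The number of microglia genes called changed with the filter and the tool. In SKF+Aβ against SKF it was 0 in the reported fit, 3 without a filter on low counts (C1qa, C1qb and Runx1), 1 with DESeq2 and 1 with DESeq2 without independent filtering (C1qa in both), and 6 at an unadjusted p under 0.05. Without a filter it was 3 for SKF+Aβ+CSP‐TTK21 against SKF+Aβ+CSP, 1 for that group against SKF+Aβ, 7 for SKF+Aβ+CSP against SKF, 1 for SKF+Aβ+CSP‐TTK21 against SKF, 1 for SKF+Aβ+CSP‐TTK21 against CSP‐TTK21 alone and 10 over the 5 groups, of 35 members each, beside 307, 128, 754, 902, 63 and 1401 of all 25251 genes in the same order. DESeq2 called 1 for SKF+Aβ+CSP against SKF (452 of all genes) and 1 over the 5 groups (407 of all genes), also 1 there without independent filtering (319 of all genes). At an unadjusted p under 0.05 the counts in the first 4 of these comparisons were 4, 2, 7 and 2, with 2 for CSP‐TTK21 alone against SKF and 3 over the 5 groups. Of all genes, 312 were called in SKF+Aβ against SKF, 1311 without a filter, 822 with DESeq2 and 12 with only the 4 libraries compared, and 1 to 301 with 1 library left out. With 1 library left out, 1 to 13 of all genes were called for SKF+Aβ+CSP against SKF (3 with every library) and 0 to 335 for SKF+Aβ+CSP‐TTK21 against SKF (1 with every library, 335 without SKF replicate 2). With 1 library left out, 0 to 1 members were called in SKF+Aβ against SKF, C1qa being called without SKF+Aβ+CSP‐TTK21 replicate 1 or replicate 2, and 0 in every other comparison.

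Same-numbered libraries deviated together in 4 of 10 pairs of groups (correlations of -0.0691 to 0.237, with over 0.1 taken as together), so the numbers were taken as labels. With the replicate block, 1 member was called in SKF+Aβ against SKF (C1qa, adjusted p = 0.0365 by edgeR) and 0 elsewhere, and of all genes 425 were called there, 108 in SKF+Aβ+CSP‐TTK21 against SKF, 14 in SKF+Aβ+CSP‐TTK21 against SKF+Aβ+CSP, 7 in SKF+Aβ+CSP against SKF, 1 in SKF+Aβ+CSP against SKF+Aβ and 15 over the 5 groups. With the block, 8 members in place of 3 had an unadjusted p under 0.05 over the 5 groups.

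The median log2 fold changes depended most on single libraries. With 1 library left out, the median of the homeostatic genes went from -0.59 to 0.81 in SKF+Aβ against SKF, from -0.60 to -0.054 in SKF+Aβ+CSP against SKF+Aβ, from 0.40 to 0.93 in SKF+Aβ+CSP‐TTK21 against SKF+Aβ+CSP, from 0.094 to 0.85 in SKF+Aβ+CSP‐TTK21 against SKF+Aβ, from -0.71 to 0.31 in SKF+Aβ+CSP against SKF, from 0.0018 to 1.24 in SKF+Aβ+CSP‐TTK21 against SKF, from 0.017 to 1.22 in CSP‐TTK21 alone against SKF and from -0.47 to 0.22 in SKF+Aβ+CSP‐TTK21 against CSP‐TTK21 alone. The median of the complement and phagocytic genes went from -0.73 to 0.076 in SKF+Aβ against SKF, from 0.0070 to 1.02 in SKF+Aβ+CSP‐TTK21 against SKF+Aβ+CSP, from 0.0023 to 0.71 in SKF+Aβ+CSP‐TTK21 against SKF+Aβ, from -1.06 to -0.0086 in SKF+Aβ+CSP against SKF, from -0.56 to 0.34 in SKF+Aβ+CSP‐TTK21 against SKF, from -0.32 to 0.29 in CSP‐TTK21 alone against SKF, from -0.21 to 0.0010 in SKF+Aβ+CSP against SKF+Aβ and from -0.44 to 0.25 in SKF+Aβ+CSP‐TTK21 against CSP‐TTK21 alone. The 112 medians under the other alternatives and the 40 summed levels moved by less than the spread between libraries, a wide limit under which some homeostatic medians came near 0. That of SKF+Aβ against SKF was -0.020 by limma, and with at least 10 counts in every library that of SKF+Aβ+CSP was -0.051 against SKF+Aβ (-0.038 against SKF), while SKF+Aβ+CSP‐TTK21 had -0.0046 against CSP‐TTK21 alone. Of 713 alternative fold changes of named members 711 kept their direction, 2 reversed and 19 gained an adjusted p under 0.05, which none had in the reported fit. The log2 fold change of Vav1 for SKF+Aβ+CSP against SKF+Aβ was -0.014 without SKF+Aβ+CSP replicate 2 and 1.48 without replicate 1, and that of Irf8 for SKF+Aβ+CSP‐TTK21 against CSP‐TTK21 alone was 0.083 without CSP‐TTK21 alone replicate 2 and -1.38 without replicate 1. The cause was not tested. With 1 library left in a group, that library was assumed to vary like the other groups. Depth limits the genes near 3 counts, Tlr4 and Ly86 among them.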
